A study of Arabidopsis thaliana with 6 samples.

Results

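AT4G15680 and AT2G47880 are 2 genes of the CC-type glutaredoxin family of Arabidopsis thaliana, and their transcripts lay on opposite sides of the wild type in seedlings of the lcbk1-2 mutant. AT4G15680 (probe set 245392_at) read lower in lcbk1-2 than in the wild type at each of the 3 times sampled, and AT2G47880 (probe set 266516_at) read higher at each. Both were taken by locus from the platform's annotation, 1 probe set each, out of 22746 probe sets that were not controls. They were chosen by these measured differences between the genotypes and by their course in the cold, on the same 6 arrays, so the values of both genes are given as a description, without a test.

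Transcript levels were recorded with Affymetrix ATH1 arrays in 2-week-old whole seedlings raised on plates with sucrose in long days. The Columbia-0 wild type was compared to lcbk1-2, a knock-out in that ecotype per its label; LCBK1 encodes a kinase of sphingoid long-chain bases, the backbones from which sphingolipids are built. Samples came from 22 °C (0 h) and from plants moved to 4 °C for 3 h or 24 h, with 1 array for each genotype and time, so a difference between 2 arrays has no replicate behind it. No seedlings held at 22 °C for 3 h or 24 h were measured, and cold and time of sampling cannot be told apart. The annotation placed 0 probe sets on LCBK1 (AT5G23450), so genotype could not be checked in the data and is taken from the labels. In whole seedlings, fewer cells of a type and less RNA per cell cannot be told apart.

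Glutaredoxins are small redox proteins that use glutathione as their reductant. The CC-type glutaredoxins, also called ROXY proteins, are a branch found in land plants. Several of them bind TGA transcription factors, and family members are known for roles in petal and anther development, in salicylic acid and jasmonate signalling, and in the response to nitrate and nitrogen supply, where some act as signals that pass from shoot to root.

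The authors' values are MAS5 signals, 1 per probe set and array on a linear scale. Signals below 65.9, the 35th percentile of all values, were treated as a floor, and log2 differences were taken above it. A difference between 2 arrays is held in by the floor where either lies below it. Such values understate how far the deposited signals lie apart. A change fitted over several arrays can instead be widened or turned by the floor. From 0 h to 3 h the CC-type gene AT3G62960 changed by -0.43 floored and -0.27 with no floor. Between the genotypes the CC-type gene AT3G62930 was at 0.14 floored and -0.20 with no floor. AT4G15680 and AT2G47880 both lay above the floor on all 6 arrays. Median signals per array ranged from 144 to 171, and 63.6% to 66.1% of probe sets were above the floor. On the wild-type 0 h array the hybridization controls were 2.21 times as bright as the other arrays' median, against 0.863 to 1.11 times elsewhere, and their part in the 0 h values was not tested. Of the tissue markers, the light-harvesting gene LHCB4.2 (13054 to 29747) and the chlorophyll synthesis gene PORB (2526 to 4918) were bright on every array, as was the root beta-glucosidase gene PYK10 (16738 to 22106). The root hair expansin genes EXPA7 (122 to 219) and EXPA18 (198 to 341) were above the floor. Shoot and root were thus both represented. None of these 5 markers passed the test between the genotypes in limma (0 also at an unadjusted p under 0.05).

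AT4G15680 gave signals of 624, 636 and 191 in the wild type at 0 h, 3 h and 24 h. In lcbk1-2 its signals at the same times were 213, 103 and 102. The wild-type arrays of 0 h and 3 h were the high ones, the wild-type 24 h array lay just under the lcbk1-2 0 h array, and both cold-treated lcbk1-2 arrays were near the floor, at 1.56 and 1.55 times it. The genotypes therefore overlapped across times, although lcbk1-2 was the lower one within each time. Of all features tested, 1.83% had every lcbk1-2 array below every wild-type array. The difference was 2.93-fold at 0 h (log2 difference -1.55), where 0.364% of the 15658 features tested were at least 2-fold lower in lcbk1-2. It was 6.18-fold at 3 h (-2.63), against 0.287% of features at least 2-fold lower, and on the floored values no other tested feature was as far below the wild type at that time. With no floor 18 of the 15658 features were as low, AT4G15680 included. It was 1.87-fold at 24 h (-0.91), short of 2-fold, where 0.345% of features were at least 2-fold lower. With the floor raised to the 50th percentile the differences at 3 h and 24 h were -2.01 and -0.27, because both lcbk1-2 arrays then lay at the floor.

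On these single arrays the course of AT4G15680 in the cold differed in its timing between the genotypes. In the wild type the signal was nearly the same at 3 h as at 0 h (log2 difference 0.028) and was 3.32-fold lower at 24 h than at 3 h, where 9.27% of features were at least 2-fold lower. In lcbk1-2 it was already 2.07-fold lower at 3 h than at 0 h, against 3.19% of features at least 2-fold lower. With the floor at the 50th percentile this log2 difference was only -0.43. The lcbk1-2 signal then stayed level to 24 h (log2 difference -0.011, which became 0.22 under quantile normalization and 0.24 under median scaling). Both of these arrays were near the floor, at 1.56 and 1.55 times it, so a further fall had little room on the floored values. From 0 h to 24 h it was 3.26-fold lower in the wild type (12.9% of features at least 2-fold lower) and 2.09-fold lower in lcbk1-2 (13% of features).

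Set against each other, the change of AT4G15680 from 0 h to 3 h was 1.08 log2 units lower in lcbk1-2 than in the wild type (-1.08), and on the floored values 228 of the 15658 features showed a gap of that size or larger in either direction. From 3 h to 24 h the gap was 1.72, reached by 16 features. These gaps rest on 1 array per genotype and time and were not tested.

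**Figure D1:**
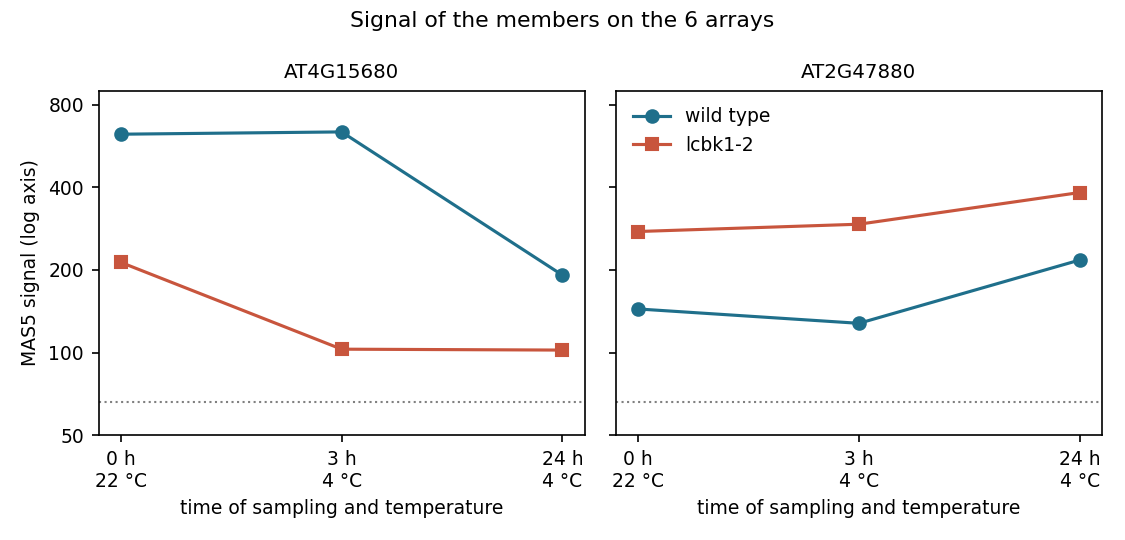
MAS5 signal on a log axis of AT4G15680 (left) and AT2G47880 (right) on each of the 6 arrays, with wild type as circles and lcbk1-2 as squares; every point is 1 array and the dotted line is the floor of 65.9. AT4G15680 was lower in lcbk1-2 at all 3 times, and AT2G47880 was higher at all 3.

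AT2G47880 gave signals of 144, 128 and 217 in the wild type at 0 h, 3 h and 24 h, and of 276, 293 and 383 in lcbk1-2. The lowest lcbk1-2 array lay above the highest wild-type array, so the genotypes did not overlap. Among all tested features, 2.15% had every lcbk1-2 array above every wild-type array. The signal was 1.91-fold higher in lcbk1-2 at 0 h (log2 difference 0.94), 2.29-fold higher at 3 h (1.20) and 1.76-fold higher at 24 h (0.82). At 3 h, 0.434% of features were at least 2-fold higher in lcbk1-2, and on the floored values 18 others were as far above the wild type as AT2G47880. With no floor 130 features were as high, AT2G47880 included. At 0 h and 24 h the gene was short of 2-fold, where 0.319% and 0.473% of features were at least 2-fold higher.

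In both genotypes AT2G47880 was highest at 24 h. Its signal was 1.51-fold higher at 24 h than at 0 h in the wild type and 1.39-fold higher in lcbk1-2. At 3 h it was close to 0 h in both, with log2 differences of -0.17 for wild-type seedlings and 0.088 for lcbk1-2. None of its changes in the cold reached 2-fold, as 9.73% of features did upward at 24 h in the wild type and 9.8% in lcbk1-2. The gap between the genotypes in the change from 0 h to 24 h was -0.12, smaller than in most features, 11542 of which had one as large or larger.

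The mean log2 difference between the genotypes over the 3 times was -1.69 for AT4G15680 (SD 0.87 over the 3 times) and 0.98 for AT2G47880 (SD 0.20), which are mean folds of 3.24 lower and 1.98 higher. AT4G15680 thus varied widely with time and AT2G47880 little. A rule added after the values were seen asked for a difference of at least 1.5-fold in the same direction at every time. Both genes met it, with 0.121% of tested features meeting it on the lower side and 0.16% on the higher side.

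As a scale for the gaps between arrays, the typical spread of a feature around the additive fit was used (prior SD 0.158). It gives 0.22 log2 units for a difference of 2 arrays. It comes from floored values and is not a spread between replicates. In AT4G15680 the highest arrays were wild type 3 h and 0 h, which differed by less than that spread. Next came lcbk1-2 at 0 h with the wild type at 24 h, also within it, and last the lcbk1-2 arrays of 3 h and 24 h, again within it. The steps from one pair to the next were 1.55 and 0.90 log2 units. In AT2G47880 the order was lcbk1-2 24 h, 3 h and 0 h, then wild type 24 h, 0 h and 3 h. There lcbk1-2 3 h and 0 h lay within the spread, as did wild type 0 h and 3 h.

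AT4G15680 stands on chromosome 4 in a run of 5 CC-type genes, AT4G15660, AT4G15670, AT4G15680, AT4G15690 and AT4G15700, with no other gene between them in the RefSeq table of assembly TAIR10.1. Of its 4 neighbours in that run, 3 were on a probe set annotated to 1 gene. AT4G15700 gave signals of 231, 90.8 and 109 in the wild type and of 144, 25.7 and 47.8 in lcbk1-2. It was 1.60-fold lower in lcbk1-2 at 0 h, at least 1.38-fold lower at 3 h and at least 1.65-fold lower at 24 h, where lcbk1-2 was below the floor. AT4G15690 gave 201, 82.0 and 57.6 in the wild type and 129, 74.1 and 6.82 in lcbk1-2, and AT4G15660 gave 96.2, 61.9 and 31.8 against 81.3, 26.8 and 23.1. All 3 neighbours read lower in lcbk1-2 than in the wild type at every time in the deposited signals, but below the floor such an order carries no weight.

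The difference between the genotypes over the times, which the choice of AT4G15680 did not use for its neighbours, was tested in limma. On the floored values it was -0.62 for AT4G15700 (SE 0.12, adjusted p = 0.384), -0.26 for AT4G15690 (adjusted p = 0.675) and -0.08 for AT4G15660 (adjusted p = 0.866). With no floor it was -1.23, -1.29 and -0.64 (adjusted p = 0.569, 0.69 and 0.651). None passed either way. The probe set of AT4G15680, like those of its neighbours, carries the ending that the platform uses for sets designed to a single transcript. Whether target from the neighbouring copies bound to it was not tested.

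At 3 h in the cold, in a fit over both genotypes, 2 of the 3 neighbours fell. Over all features tested, 7.88% fell at 3 h and 28.6% at 24 h. AT4G15700 fell by 1.24 on the log2 scale (SE 0.14, adjusted p = 0.00387 in limma), or by 1.92 with no floor, since its lcbk1-2 array lay below it, and AT4G15690 fell by 1.04 (adjusted p = 0.016). AT4G15660, below the floor at 3 h, did not pass (-0.42, adjusted p = 0.0925). By 24 h AT4G15700 was at -1.11 (adjusted p = 0.00141), AT4G15690 had fallen at least 2.44-fold (adjusted p = 0.00235) and AT4G15660 at least 1.34-fold (adjusted p = 0.0491). The 2 calls at 3 h were lost when low probe sets were not filtered out, and when any array was left out with the features kept. The call of AT4G15690 also depended on the floor. It was lost when floored at the 20th percentile (adjusted p = 0.118 in limma) and with no floor (0.404), and under 11 of 18 alternatives in all. The 24 h call of AT4G15690 was lost without the filter and without the wild-type 24 h array. AT4G15660 passed the filter only through its 0 h arrays, so on the floored values it could only fall. Its call was lost under 13 of 16 alternatives.

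**Figure D2:**
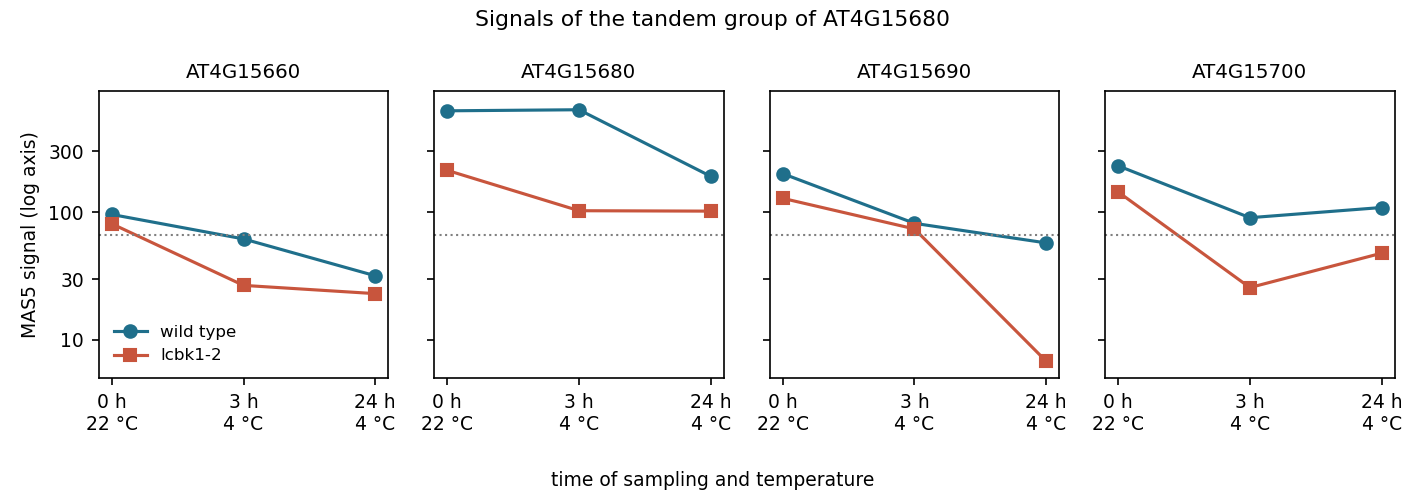
MAS5 signal on a log axis of AT4G15680 and of the 3 neighbouring CC-type genes with a probe set of their own, by time and temperature, with wild type as circles, lcbk1-2 as squares and the floor as a dotted line; every point is 1 array. AT4G15680 stayed at 636 in the wild type at 3 h, while AT4G15700 had gone from 231 to 90.8 and AT4G15690 from 201 to 82.0.

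AT2G47880 stands on chromosome 2 beside another CC-type gene, AT2G47870, which had no probe set of its own in the annotation and was not analysed here. The RefSeq table also lists AT2G47885, a protein-coding gene that overlaps AT2G47880, and the probe set cannot be assigned between them from the files.

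Of the 21 loci of the CC-type family, 17 were on a probe set of 1 gene, and 16 of these were tested. AT5G11930 was above the floor on 1 array and was not. Leaving out the 2 genes, 14 family members remained, of which 6 were above the floor on all arrays. The other 8 entered through the arrays on which they were bright, so counts over the 14 are a description. Between the genotypes 0 of the 14 passed in limma, 4 at an unadjusted p under 0.05, against 2 of all 15658 features (0.0128%, 0.00639% in each direction) that passed and 1292 at an unadjusted p under 0.05. The median difference of the 14 was 0.04, beside 0.01 over all features, both on the floored values. With no floor the median of the 14 was -0.05, which has no like median over all features beside it here.

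Those 4 family members lay on both sides. AT4G15700 and AT1G06830 were lower in lcbk1-2, and AT3G62960 and GRX480 were higher. AT3G62960 passed the filter only through 2 lcbk1-2 arrays, so on the floored values it could only come out higher. AT1G06830 gave 628, 576 and 310 in the wild type and 507, 493 and 161 in lcbk1-2, a difference of -0.49 over the times (SE 0.17, adjusted p = 0.549) that was widest at 24 h, at 1.92-fold. GRX480 (AT1G28480), which is induced by salicylic acid and binds TGA factors, gave 108, 51.8 and 72.3 against 188, 66.4 and 123, with a difference of 0.53 (adjusted p = 0.558). Its deposited signal was higher in lcbk1-2 at each time, by 1.28-fold at 3 h, where the wild type was below the floor.

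AT3G62960 was below the floor on every wild-type array and on the lcbk1-2 3 h array, and read 119 and 145 in lcbk1-2 at 0 h and 24 h. That is at least 1.80-fold and at least 2.20-fold higher (0.66 over the times, adjusted p = 0.548). On the floored values 1 of the 14, this gene, was at least 2-fold apart between the genotypes at any time, and 0 were at least 1.5-fold apart in the same direction at all 3 times. Both counts depend on the floor. In the deposited signals 4 of the 14 were at least 2-fold lower and 2 at least 2-fold higher at some time. Each of these differences involved an array below the floor. With no floor, 430 features at 0 h, 385 at 3 h and 589 at 24 h were at least 2-fold apart, out of 15658. Those are counts per time and in either direction, so they are not a like share. AT4G15700 was 1.60-fold, 3.53-fold and 2.28-fold lower in the deposited signals at 0 h, 3 h and 24 h. Its lcbk1-2 signals at 3 h and 24 h, 25.7 and 47.8, were below the floor. On the floored values these 2 folds were at least 1.38 and at least 1.65. The 1.5-fold rule that AT4G15680 and AT2G47880 met was set on the floored values, where AT4G15700 did not meet it. With no floor the rule has no share over all features beside it here.

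**Figure D3:**
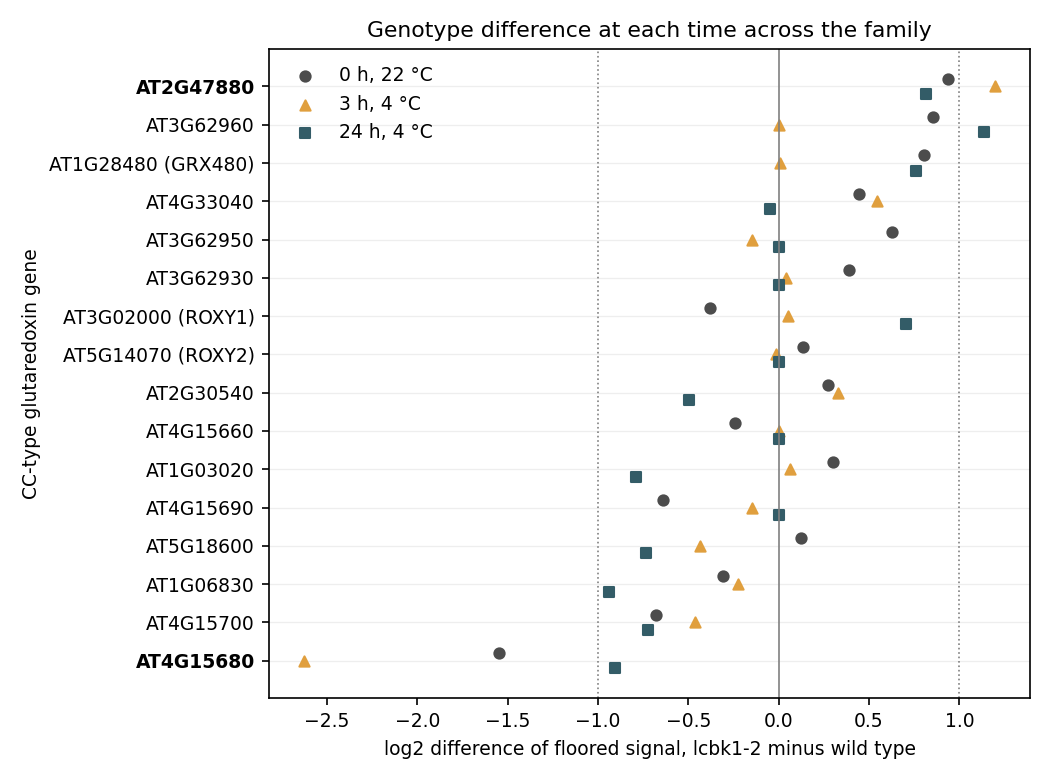
Log2 difference of the floored signal, lcbk1-2 minus wild type, at 0 h (circles), 3 h (triangles) and 24 h (squares) for the 16 tested CC-type glutaredoxins, ordered by their mean; each point compares 1 array with 1 array, dotted lines mark 2-fold, and genes at the floor in both genotypes sit at 0. AT4G15680 and AT2G47880, in bold, lie at -2.63 and 1.20 at 3 h; genes with arrays below the floor lie further apart in the deposited signals than drawn.

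At 24 h in the cold, in the fit over both genotypes, 7 of the 14 other family members fell and 2 rose against 0 h. Over all features 28.6% fell and 19.3% rose, 40.3% of calls being rises, or 55.2% under median scaling, a setting that shifted the centre of all features upward by 0.17 log2 units. Under median scaling 13 of the 14 were tested, and 6 of them fell and 2 rose. Of the 6 members above the floor on all arrays 2 fell and 2 rose. The median change of the 14 was -0.51, beside -0.11 over all features, both on the floored values. With no floor the median of the 14 was -1.34, which has no like median over all features beside it here. Tissue markers moved too at 24 h: LHCB4.2 fell by 1.00 on the log2 scale and EXPA7 and EXPA18 fell by 0.54 and 0.49, while PORB (0.04) and PYK10 (-0.06) did not pass, and their part in the family's counts was not tested.

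AT5G18600 had the largest fall among members above the floor on all arrays. Its signals at 0 h and 24 h were 2717 and 451 in the wild type and 2956 and 271 in lcbk1-2, which is 8.11-fold lower (-3.02, SE 0.22, limma adjusted p = 1.84e-04). At 3 h its change of -0.33 did not pass. AT1G06830 fell by 1.34 on the log2 scale (adjusted p = 0.00282), a call lost without the filter on low values and without the lcbk1-2 0 h array. ROXY2, which acts in anther development, was at the floor at 24 h and had fallen at least 1.77-fold, and AT3G62950 at least 2.52-fold. The latter call was lost with no filter and without either 24 h array. With no floor the changes of ROXY2 and AT3G62950 were -3.48 and -4.66. Their 24 h signals in wild type and lcbk1-2 were far below the floor, at 9.05 and 12.1 and at 1.71 and 25.2. Their order against the fall of AT5G18600 therefore carries no weight.

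AT4G33040 was the family member that rose furthest. Its signals at 0 h and 24 h were 142 and 927 in the wild type and 193 and 897 in lcbk1-2, which is 5.51-fold higher (2.46, SE 0.18, limma adjusted p = 1.98e-04), a call kept under every alternative run. AT1G03020 also rose (0.86, adjusted p = 0.0383), but the call was lost under 10 of 19 alternatives. ROXY1, known from petal and anther development, did not pass, at 0.52 (adjusted p = 0.141), nor did AT2G30540 at -0.22 and AT3G62960 at 0.14. GRX480 did not pass at -0.60 (adjusted p = 0.0686), but did with no floor (adjusted p = 0.045). AT3G62930, at the floor at 24 h with signals of 5.21 and 2.41, did not pass either (adjusted p = 0.344). Its change was -1.60 (adjusted p = 0.00516) with the floor at the 20th percentile and -4.38 (adjusted p = 0.00238) with none. 

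At 3 h, 4 of the 14 fell and 1 rose, against 7.88% and 9.28% of all features. Beside AT4G15700 and AT4G15690 these were AT3G62950 (-1.26, adjusted p = 0.0129) and GRX480 (-1.11, adjusted p = 0.0226), and AT4G33040 rose by 0.69 (adjusted p = 0.0489). The count of 5 calls was 0 without the filter on low values and 0 or 1 with any array left out and the features kept. It was 2 to 6 when the filter was applied to the 5 remaining arrays. From 3 h to 24 h, 4 of the 14 fell, AT5G18600 (-2.69), AT1G06830 (-1.25), AT2G30540 (-0.94) and ROXY2 (at least 1.72-fold), and AT4G33040 rose by 1.77. The call of ROXY2 was lost without any one of the 3 h or 24 h arrays. That of AT1G06830 was lost without either of the lcbk1-2 arrays of these times, and that of AT2G30540 under 9 of 20 alternatives. With no filter on low values the calls of AT5G18600, AT4G33040, AT1G06830 and AT2G30540 were all lost, and that of ROXY2 was kept. Over all features 21.2% fell and 12.9% rose, 37.8% of calls being rises, or 48.6% under quantile normalization and 58.4% under median scaling.

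**Figure D4:**
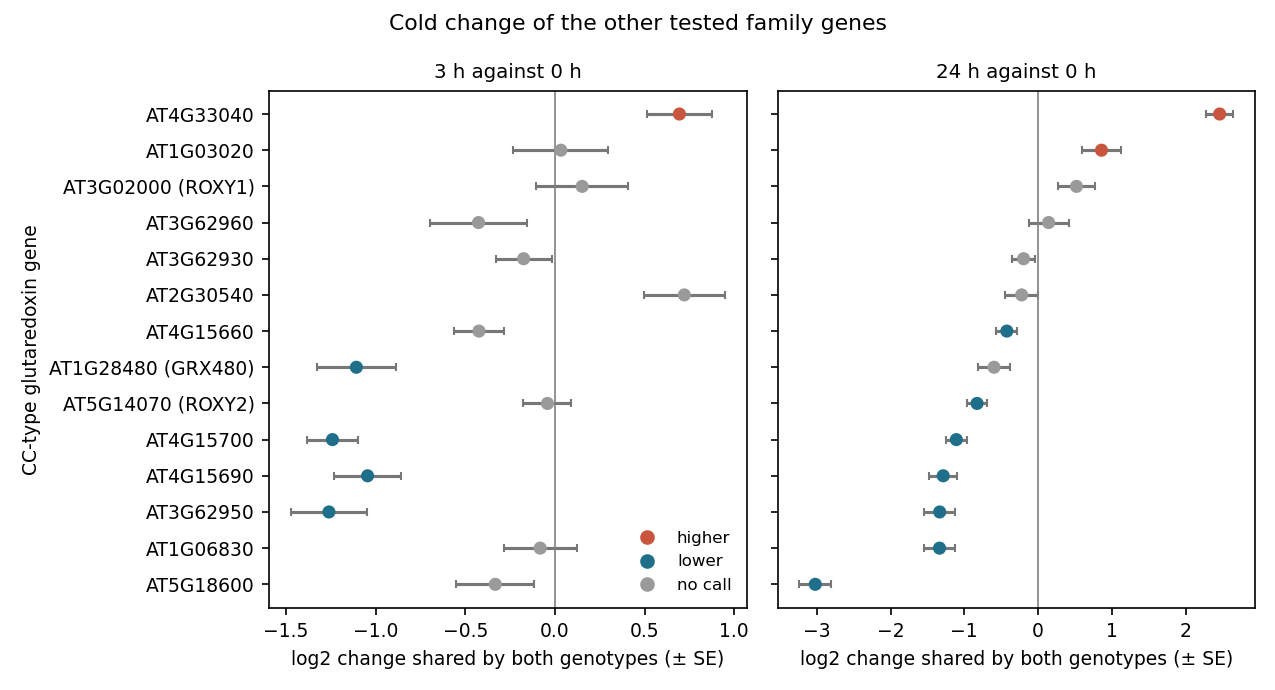
Log2 change against 0 h at each cold time, shared by both genotypes, for the 14 tested CC-type glutaredoxins other than AT4G15680 and AT2G47880; bars are the SE of the limma fit, and colours mark calls at an adjusted p under 0.05. At 24 h AT5G18600 lies at -3.02 and AT4G33040 at 2.46. Members at the floor at 24 h are drawn at their bound. With no floor AT3G62950, AT3G62930 and ROXY2 lie below AT5G18600, and AT4G15690 lies level with it at -3.02. All of these but AT5G18600 were below the floor in both genotypes at 24 h, where such an order carries no weight.

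Glutaredoxins of the CPYC and CGFS types make up the rest of the wider family. Of 10 loci, 5 were tested, and 0 of them passed at 3 h in limma (0 at an unadjusted p under 0.05). Over all features 9.28% rose and 7.88% fell at 3 h, and 19.3% rose and 28.6% fell at 24 h. At 24 h GRXC2 rose by 0.43 (adjusted p = 0.0359) and AT1G77370 fell by 0.82 on the log2 scale (adjusted p = 0.0042), while GRXC1 (-0.34), AT5G20500 (-0.31) and AT2G20270 (-0.24) did not pass. Between the genotypes 0 of the 5 passed, 0 also at an unadjusted p under 0.05. Glutathione reductase recycles the reductant of glutaredoxins. Its gene GR1 rose by 0.68 at 3 h (limma adjusted p = 0.024) and by 0.87 at 24 h (adjusted p = 0.00335). The calls of GR1 were not followed through the alternatives. GR, the other glutathione reductase gene, did not pass, at -0.07 and 0.15.

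In the list of nitrate uptake and nitrogen signalling, 4 of 22 loci were tested. Over all features 28.6% fell and 19.3% rose at 24 h. At 24 h AT1G68670 fell by 1.11 on the log2 scale (adjusted p = 0.00447) and AT3G25790, at the floor at 24 h, fell at least 1.81-fold, while AT1G25550 (-0.25) and AT4G32950 (0.14) did not pass. Between the genotypes 0 of the 4 passed, 1 at an unadjusted p under 0.05. The cytokinin response regulator genes ARR15 and RR16, 2 of 9 loci of their list, rose at 3 h. Their changes were 1.85 and 1.03 (limma adjusted p = 0.00162 and 0.014), where 9.28% of all features rose. These 2 calls were not followed through the alternatives. Over all features the 2687 calls at 3 h were 124 with no filter on low values. At 24 h neither gene passed against 0 h (0 at an unadjusted p under 0.05). RR16 was at -0.04, and ARR15 was below the floor in both genotypes. The ARR15 signal at 24 h was 5.17 in the wild type, against 84.7 at 0 h, but 64.5 in lcbk1-2, against 67.2 at 0 h. Neither passed between the genotypes (0 at an unadjusted p under 0.05). Of 10 TGA factor genes, partners of the CC-type glutaredoxins, 0 were on an annotated probe set of 1 gene, and they were not analysed here.

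The genes whose 6 signals ran most like those of AT4G15680 were found by the root mean square difference of log2 signals over the 6 arrays, after each gene was centred on its own mean, among 8441 other annotated genes. The nearest was AT5G64120, listed in RefSeq as a peroxidase, at 0.30 log2 units. It gave 2490, 2285 and 822 in the wild type and 1065, 683 and 379 in lcbk1-2, with log2 differences of -1.23, -1.74 and -1.12 at 0 h, 3 h and 24 h. Its widest gap, like that of AT4G15680, was at 3 h. The glutamine amidotransferase gene GAT1_2.1 followed at 0.54, the chitinase gene CHI at 0.56, the osmotin gene OSM34 at 0.58 and AT1G30700 at 0.62. All 5 were listed lower in lcbk1-2 at every time, except that GAT1_2.1 was below the floor in both genotypes at 24 h.

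The genes most like AT2G47880 were AT5G25840 at 0.23, AT5G64110 at 0.27, and AT3G56330, SP1L2 (a SPIRAL1-like gene) and AT3G22430, each at 0.29. AT5G64110 gave 130, 177 and 188 in the wild type and 232, 267 and 289 in lcbk1-2. None of these 10 genes belongs to the CC-type family, and the likeness of profiles chosen this way is a description.

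**Figure D5:**
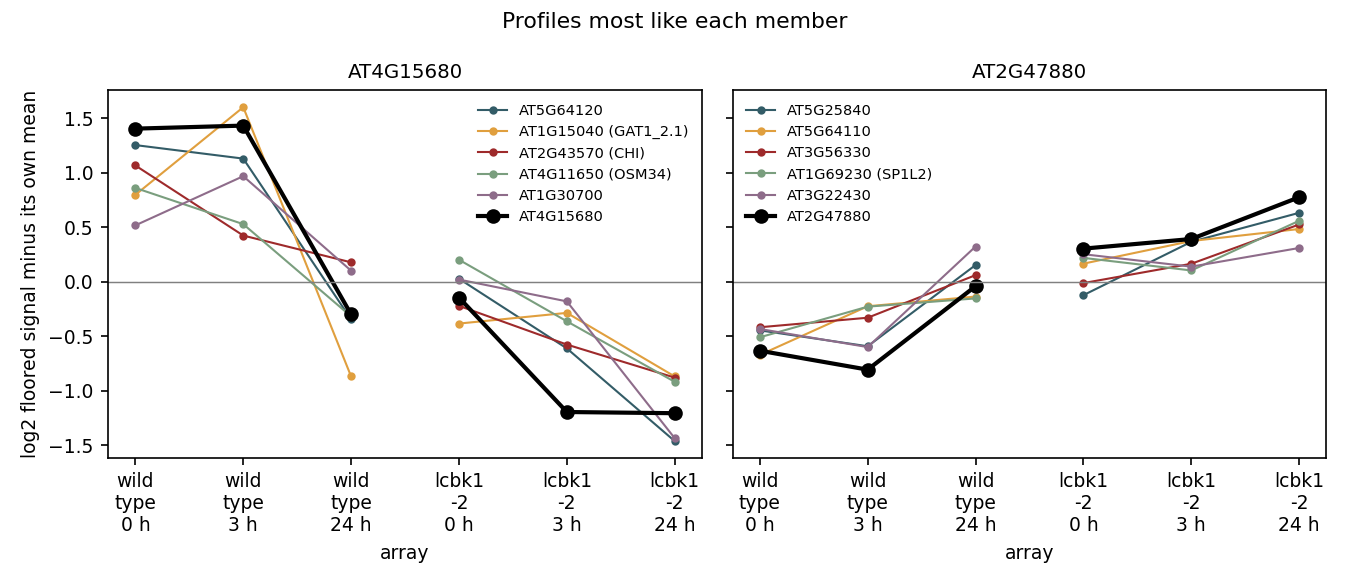
Log2 floored signal minus the gene's own mean over the 6 arrays for AT4G15680 (left) and AT2G47880 (right), in black, and for the 5 annotated genes most like each; each point is 1 array and lines join the times of a genotype. The profile of AT5G64120 lies 0.30 log2 units from that of AT4G15680, and that of AT5G25840 lies 0.23 from that of AT2G47880.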

How the data were processed

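The deposited intensity of each probe set is a MAS5 signal, according to the submitters' processing notes, made by the authors from 1 array; MAS5's version and target value were not given in the sources used here. The values are linear and share a trimmed mean across arrays. Of 22810 rows, 64 were controls and left out. Names came from the platform annotation and RefSeq's table of TAIR10.1 (13513 with 1 gene, 503 with several, 8730 with none), and the brightest probe set of a gene was kept. Values were floored at 65.9, log2 was taken, and the 15658 features exceeding the floor on 2 or more arrays were fitted with limma 3.58.1 in R 4.3.3, with additive genotype and time, 2 residual degrees of freedom, Benjamini-Hochberg adjustment and a threshold of 0.05. The residual spread mixes array error with any genotype-specific cold response. "At least" marks a group at the floor, whose SE and p can be too small. Named genes were the 2 genes, the listed loci on probe sets of 1 gene, and the 5 most similar genes each; the genes and lists were chosen with earlier results of these data known. The number of arrays limits the precision.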

Additional observations from a re-analysis of the deposited data

Results flagged for a closer look

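The change from 0 h to 3 h had opposite signs in the genotypes for both genes. On the log2 scale AT4G15680 was at 0.028 in wild-type seedlings and at -1.05 in the mutant. AT2G47880 was at -0.17 in wild-type seedlings and at 0.088 in the mutant. The difference was not tested, since each value compares 1 array with 1 array. The wild-type change of AT4G15680 and both changes of AT2G47880 are under the 0.22 that the typical spread around the fit gives for 2 arrays. That is not a spread between replicates.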

How the results depend on the processing

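No pairing of replicates was possible because each genotype and time had 1 array and the labels number no replicates. With genotype and time additive, the fit compared the genotypes within each time. The differences of AT4G15680 and AT2G47880 kept within 0.22 log2 units under 99 of 108 comparisons with an alternative. That count includes settings that could not move these values: a lower floor, no floor and the mean over a gene's probe sets. Both genes have a single probe set and lay above the floor on every array. Their unchanged values under those settings therefore say nothing about robustness. When floored at the 50th percentile, AT4G15680 was at -2.01 and -0.27 between the genotypes at 3 h and 24 h and at -0.43 against 0 h in lcbk1-2 at both cold times, and AT2G47880 was at 0.89 between the genotypes at 3 h and 0.46 from 3 h to 24 h in the wild type. From 3 h to 24 h in lcbk1-2, AT4G15680 was at 0.22 under quantile normalization and 0.24 under median scaling, and AT2G47880 at 0.63 under median scaling. The cause was not tested.

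The 2687 features called at 3 h were 1018 when floored at the 20th percentile, 1548 with no floor and 124 with no filter. The 7488 at 24 h were 3585 and the 5329 between 3 h and 24 h were 1584 with no filter. The 2 calls between the genotypes were 0 when floored at the 20th or 50th percentile, with no floor, no filter, or features above the floor on all arrays. Features at least 2-fold apart between the genotypes at 0 h, 3 h and 24 h (107, 113 and 128) were 683, 577 and 919 when floored at the 20th percentile, 36, 39 and 29 at the 50th, 430, 385 and 589 with no floor, and 61, 62 and 75 above the floor on all arrays. Of the other family members, the 5 calls at 3 h were 2 when floored at the 20th or 50th percentile or not at all, 0 with no filter and 1 above the floor on all arrays; the 9 at 24 h were 3 at the 50th percentile, 4 with no filter and 4 above the floor on all arrays, where fewer members were tested (4 at the 50th percentile and 6 above the floor on all arrays, against 14); the 5 between 3 h and 24 h were 1 with no filter.

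With 1 array left out and the features kept, calls over all features ranged from 0 to 486 at 3 h, 3866 to 6541 at 24 h, 1087 to 3945 between 3 h and 24 h and 0 to 0 between the genotypes, and in the family from 0 to 1, 5 to 8, 2 to 5 and 0 to 0. With the filter applied to the remaining arrays, chosen after seeing the data, they ranged from 1103 to 2990, 5818 to 7325, 3370 to 5739 and 0 to 2, and in the family, with 12 to 14 members tested, from 2 to 6, 8 to 9, 4 to 7 and 0 to 0. No call of a family member changed sign. With no floor, also chosen after seeing the data for ranks, 18 features were as low as AT4G15680 at 3 h, against 1 on the floored values.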
